A study of Saccharomyces cerevisiae with 2 samples.

Results

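The outer 20 kb of the 16 nuclear chromosomes of budding yeast were described here in RNA bound to Cbc2, a subunit of the nuclear cap binding complex (CBC). The members are the 100 bp segments of the genome that lie wholly within 20 kb of the first or the last base covered on their chromosome, whether or not they overlap an open reading frame (ORF). They numbered 6400, or 200 at each of 32 chromosome ends, of 121639 segments in all. The choice used position only and no read count.

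RNA came from diploid SK1 cells, a strain background that enters meiosis synchronously, after 6 h in sporulation medium. Both strains carry CBC2-TAP-TRP1 on each homologue and share the background ho::LYS2 and lys2, with ura3 and leu2::hisG as well as his3::hisG and trp1::hisG. The wild type has no further change, and the trf4Δ strain is homozygous for trf4::NatMX6. Cbc2-TAP was purified first over IgG and then over calmodulin, and the RNA was copied from random hexamers. Nothing in the sources states that strand was kept. There was 1 library per genotype, run on its own lane, so no difference below has a replicate check. In the sporulation protocol of the paper, wild-type cultures were also seeded at a lower density in acetate medium than trf4Δ cultures. Effects of lane and of culture density cannot be told apart from those of genotype. For the meiotic label, 8 genes of meiotic recombination and its control were read (SPO11, HOP1, DMC1, REC8, ZIP1, MEI4, REC114 and NDT80). Their ORFs held between 700 and 16134 reads in trf4Δ and between 1957 and 22472 scaled reads in wild type, so none was absent. This is a weak check, as 96.0% of ORFs outside the ends exceeded 6 on the log2 scale in a library. There was also no mitotic library to compare. SPO11 overlaps a region called below as a cryptic unstable transcript, so its trf4Δ reads need not be mRNA. TRF4 itself, listed as PAP2, gave 346 wild-type reads against 1 in the deletion strain.

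Subtelomeres lie between the telomeric repeats and the single-copy interior of the chromosome. They hold the repeated X and Y' elements and families of near-identical genes for sugar, vitamin and cell wall metabolism, and genes there can be silenced by Sir proteins that spread from the telomere. Cryptic unstable transcripts (CUTs) are short capped RNAs made by RNA polymerase II, often from the start regions of genes. The proteins Nrd1 and Nab3 bind them as they are made, the TRAMP complex, whose poly(A) polymerase is Trf4, adds a tail, and the nuclear exosome degrades them. Because the CBC binds nuclear capped RNA of all kinds, it holds mRNAs and CUTs together.

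In all, 22092372 reads were counted in the segments in wild type and 29687088 in trf4Δ. Wild-type reads were multiplied by 1.34 to give both libraries the same total, and values called scaled carry this factor. Differences are log2 of reads in trf4Δ over scaled reads in wild type, so that a positive value is higher in trf4Δ. Among the other nuclear segments the median difference was -1.10, so a segment near that value lay in the middle of the genome's range. In bulk libraries, fewer cells that hold an RNA and less of it per cell cannot be told apart.

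The DNA at 6 subtelomeric CUTs, called as described below, is shown because these held the most trf4Δ reads. Each window is the 200 bases centred on the segment with the most trf4Δ reads, read from the RefSeq assembly R64 by its distance from the start of the neighbouring ORF, in the direction of that ORF. The gap between the flanking ORFs has the same length in R64 and in the deposited coordinates at all 6 loci. Capitals mark GTAG and TCTT on either strand, so that CTAC and AAGA are capitals too. These are the DNA letters of short motifs known to be bound by Nrd1 and Nab3 in RNA, and the letters of one cannot overlap those of the other. The first is NEL025 before DLD3 (chrV:15751-15950, plus strand, bases 604 to 405 before the ORF). The others are the CUT before IMD2 (chrVIII:554151-554350, plus strand, from base 245), the one over YBR296C-A before MAL33 (chrII:800057-800256, plus strand, from base 466) and the one before YOR390W, named FEX1 in R64 (chrXV:1076353-1076552, plus strand, from base 431). The last 2 lie before YER186C (chrV:562956-563155, minus strand, from base 530) and before ECM34 (chrVIII:14553-14752, plus strand, from base 348). The locus before ECM34 was sixth by reads and was added after its values were seen, as the CUT with the most reads at an end with 5 CUTs.
NEL025: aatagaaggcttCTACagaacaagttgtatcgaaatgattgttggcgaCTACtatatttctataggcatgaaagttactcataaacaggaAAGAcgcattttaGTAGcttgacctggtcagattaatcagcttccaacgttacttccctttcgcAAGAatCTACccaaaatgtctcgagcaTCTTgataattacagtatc
IMD2: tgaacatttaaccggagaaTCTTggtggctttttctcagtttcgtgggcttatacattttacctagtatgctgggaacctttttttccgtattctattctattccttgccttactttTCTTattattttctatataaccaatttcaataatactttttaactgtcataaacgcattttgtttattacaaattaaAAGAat
YBR296C-A: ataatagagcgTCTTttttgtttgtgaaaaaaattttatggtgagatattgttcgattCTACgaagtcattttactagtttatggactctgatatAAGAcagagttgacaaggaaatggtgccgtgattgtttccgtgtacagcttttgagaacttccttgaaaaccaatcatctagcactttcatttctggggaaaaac
YOR390W: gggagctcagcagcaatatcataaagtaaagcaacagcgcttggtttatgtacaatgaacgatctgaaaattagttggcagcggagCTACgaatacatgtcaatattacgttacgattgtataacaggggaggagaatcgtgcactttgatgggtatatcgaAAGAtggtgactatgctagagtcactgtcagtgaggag
YER186C: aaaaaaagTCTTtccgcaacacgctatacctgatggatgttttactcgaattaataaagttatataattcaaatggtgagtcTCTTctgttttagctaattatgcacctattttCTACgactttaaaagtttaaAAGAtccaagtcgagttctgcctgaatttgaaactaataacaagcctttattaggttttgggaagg
ECM34: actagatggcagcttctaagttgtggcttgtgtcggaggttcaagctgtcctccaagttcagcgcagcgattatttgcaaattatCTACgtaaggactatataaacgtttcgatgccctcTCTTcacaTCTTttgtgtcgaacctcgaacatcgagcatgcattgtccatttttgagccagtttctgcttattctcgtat

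The NEL025 window held 4 GTAG and 3 TCTT. Of 6001 windows of 200 bases taken directly before the start of an R64 gene, 2.92% held at least 4 GTAG and 66.8% at least 3 TCTT. The windows before MAL33, YOR390W, YER186C and ECM34 held 1 GTAG each, where 66.0% of the 6001 windows held at least 1, and the window before IMD2 held none. TCTT was found 3 times before IMD2 and YER186C, 2 times before MAL33 and ECM34 (84.5% of windows held at least 2) and once before YOR390W (96.0%). A match of 4 letters is a description of the DNA and does not show that a protein binds there.

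Subtelomeric segments made up 5.31% of nuclear segments but took a smaller share of the reads. In wild type they held 194187 of 21894128 nuclear reads, or 0.887% (95% Wilson interval 0.883 to 0.891%). In trf4Δ they held 446027 of 29401094, or 1.52% (1.51 to 1.52%). These intervals cover counting error only, since PCR copies of a molecule, and reads that 2 adjoining segments both count, are not separate molecules. The summed reads were thus 1.71 times as high in trf4Δ as in scaled wild type. Those of the other nuclear segments stood at 0.993 times, a value that the scaling to equal totals holds near 1. A large part came from 1 end. Without the left end of chromosome V, an alternative chosen after seeing the data, the shares were 0.844% in wild type and 1.05% in trf4Δ, and without the NEL025 CUT alone the share in trf4Δ was 1.09%.

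Many subtelomeric segments gave no read at all. Of the 6400, 3184 (49.8%) were at 0 in both libraries, against 4352 of 114178 other nuclear segments (3.81%), and subtelomeres held 42.3% of all nuclear segments at 0. The share was lower farther in, going from 73.5% in the outermost 5 kb to 55.6%, 42.0% and 27.9% in the next 3 bins of 5 kb, and to 1.12% between 45 and 50 kb. The 17 ends that carry a Y' element in R64 had 63.5% of their segments at 0, from 54 to 194 of 200 with a median of 138. The 15 ends annotated with an X element only had 34.2% at 0, from 2 to 171 with a median of 48, so the ranges of the 2 classes overlapped. Whether a read could be placed uniquely in a given segment was not tested. The remaining 3216 segments with a read had medians of 22.8 scaled reads in wild type and 20.0 reads in trf4Δ, below the 51.1 and 32 of the other nuclear segments.

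**Figure D1:**
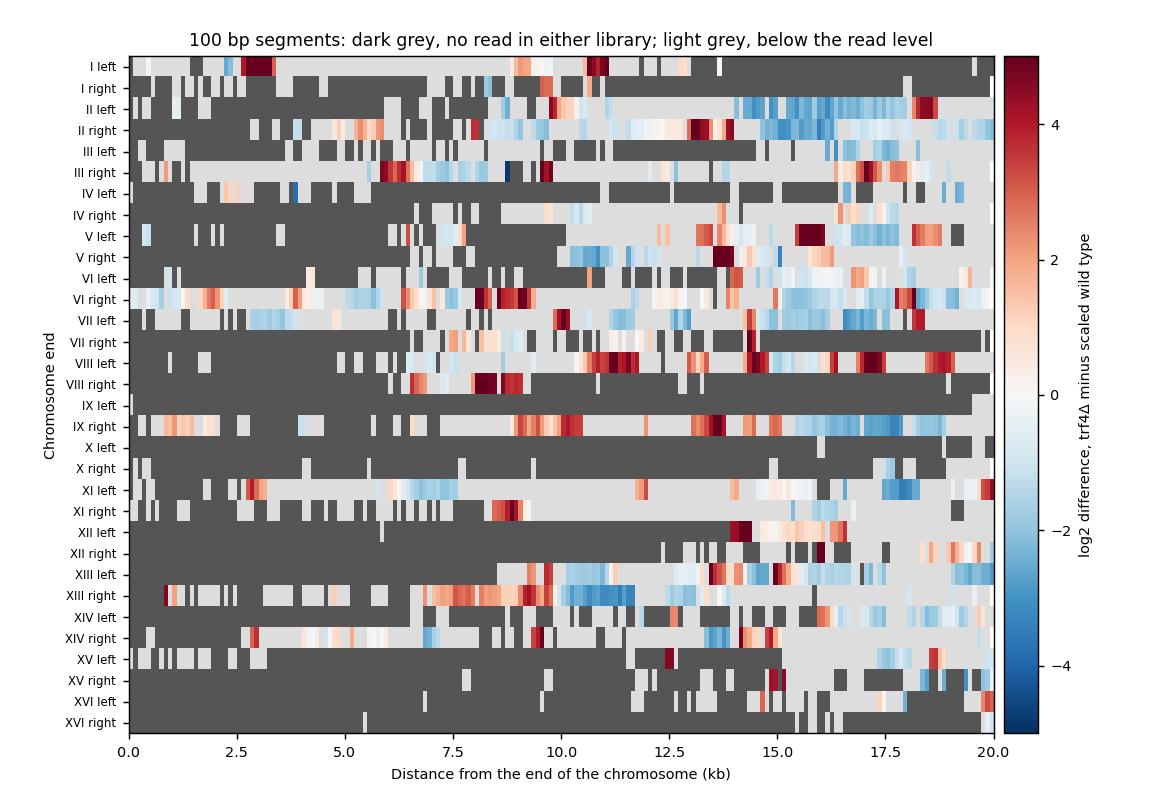
Map of the 32 chromosome ends (rows) by distance from the end in kb. Each 100 bp segment with at least 64 reads in a library is coloured by its log2 difference between trf4Δ and scaled wild type (red, higher in trf4Δ), dark grey segments held no read and light grey ones fewer than 64. Short red blocks stand among grey and blue stretches, most ends with a Y' element are dark over their outer part, and IX left and X left have 194 of 200 segments at 0.

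Differences were read where a segment held at least 64 reads in either library, wild type after scaling. This left 1144 subtelomeric segments, 35.6% of those with a read, against 56379 (51.3%) elsewhere. Of the 1144, 298 (26.0%) exceeded 4-fold towards trf4Δ and are called higher, and 198 (17.3%) exceeded it towards wild type and are called lower, where the background over all 57523 nuclear segments past this level was 16.3% higher and 16.6% lower. The lower share was therefore near the background and the higher share above it. The median difference was -0.37, with quartiles of -1.68 and 2.08, against -1.10 for the other segments. Of the 298, 25 held 3 reads or fewer in wild type, where the size of a fold is poorly measured. When the median difference of nuclear segments was set to 0 in place of equal totals, which moves every difference up by 1.09, 865 subtelomeric segments remained past the level, of which 407 (47.1%) were higher and 9 lower, with a median of 1.90. Elsewhere 32.9% were then higher, with a median of 0.59. The read level was applied again after this scaling, so segments that had passed it through wild-type reads alone could drop out. These shares and medians therefore reflect the filter as well as the shift of 1.09.

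Segments in and between ORFs went opposite ways. The 521 subtelomeric segments past the level that overlap no ORF had a median difference of 1.83, and 245 of them (47.0%) were higher and 35 (6.72%) lower. The 623 that overlap an ORF had a median of -1.35, with 53 (8.51%) higher and 163 (26.2%) lower. For the other nuclear segments the medians were 1.33 and -1.31, with 40.9% of non-ORF segments higher and 19.2% of ORF segments lower. Summed reads between subtelomeric ORFs were 4.91 times as high in trf4Δ, and those over ORFs 0.597 times. Elsewhere these ratios were 1.71 and 0.709, where the reads include those of the U1 snRNA gene. NEL025 alone gave 126530 of the 330498 trf4Δ reads outside subtelomeric ORFs, so the ratio of 4.91 rests in large part on 1 locus. ORF segments made up 54.5% of the subtelomeric segments past the level and 82.4% of the others. If the other segments are weighted to the subtelomeric mix of ORF and non-ORF segments, 24.5% of them would be higher and 12.4% lower, which is close to the 26.0% seen at the ends for the higher direction and below the 17.3% seen for the lower.

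Shares also differed by the kind of gap. Between tandem genes, which point the same way, 53.1% of 258 subtelomeric segments past the level were higher in trf4Δ, and between convergent genes 52.2% of 115 were. Elsewhere these shares were 41.9% and 31.8%. Between divergent genes, where start regions face each other, the order was opposite, with 34.8% of 135 subtelomeric segments higher against 42.4% elsewhere. Between the last ORF and the chromosome end 175 of 258 segments were at 0, only 13 passed the level and 1 of these was higher.

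**Figure D2:**
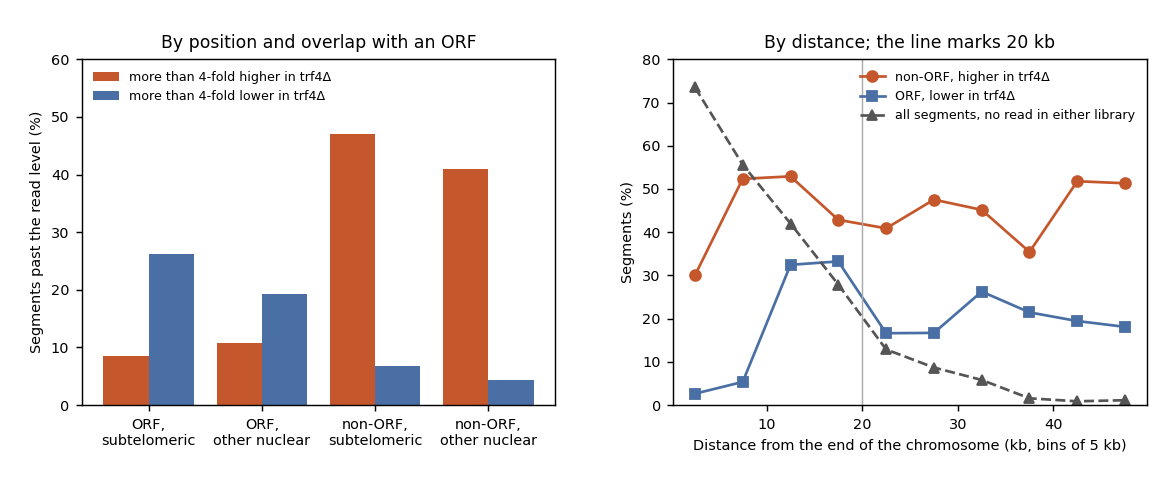
Left, share in percent of segments past the read level that were more than 4-fold higher (orange) or lower (blue) in trf4Δ, by position and overlap with an ORF, with 1 library per genotype and no error bar. Right, 3 shares by distance from the chromosome end in bins of 5 kb. Non-ORF segments are higher in 47.0% at the ends and 40.9% elsewhere, and the lower ORF segments are rare within 10 kb of the end.

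The balance of higher and lower segments changed with distance. In the outermost 5 kb 98 segments passed the level, with a median difference of 0.53, 22.4% higher and 3.06% lower. From 5 to 10 kb, 240 segments had a median of 1.18, the highest of the 10 bins that reach to 50 kb, with 39.6% higher and 4.58% lower. From 10 to 15 kb the median of 323 segments was 0.18, and from 15 to 20 kb that of 483 segments was -1.15, with 17.0% higher and 25.9% lower. Further in, from 20 to 25 kb, the median was -0.96. In bins of 2 kb the change was uneven, with medians of 0.33 from 4 to 6 kb and -0.34 from 6 to 8 kb. The median was 2.15 from 8 to 10 kb, -1.04 from 10 to 12 kb and 0.69 from 12 to 14 kb. The bin from 8 to 10 kb held 68 of the 95 higher segments found from 5 to 10 kb. Only 13 of the 32 ends had a segment past the level in the outermost 5 kb, and 19 from 5 to 10 kb. Of the 198 lower segments, 163 overlapped an ORF. In the outer 2 bins of 5 kb, 2.63% and 5.36% of ORF segments were lower, and in the inner 2, 32.5% and 33.2%. Non-ORF segments were higher in 30.0%, 52.3%, 52.9% and 42.9% of cases over the same bins. The choice of 20 kb thus sets the sign of the median, which was 0.87 within 10 kb.

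The ends differed widely from each other. Summed reads were higher in trf4Δ at 18 of 32 ends and lower at 14, with a median log2 ratio of 0.31, and 3 ends passed 4-fold in the higher direction and 0 in the lower. The right end of chromosome VIII was the highest, with 1791 scaled reads in wild type and 29952 in trf4Δ, a log2 ratio of 4.06. The left end of chromosome V followed with 12763 and 138515 reads (3.44), and the right end of XV with 2333 and 18388 (2.98), of which 1 segment gave 65.0% of the trf4Δ reads. The lowest were III left with 2387 and 720 reads (-1.73), IX left with 145 and 69 reads (-1.07) and no segment past the level, and IX right with 46149 and 22311 reads (-1.05). At the 3 highest ends most trf4Δ reads sat in the CUTs described below, and at IX right most wild-type reads sat on IRC24 and HYR1. At VIII left 36 segments were more than 4-fold higher and 0 lower.

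**Figure D3:**
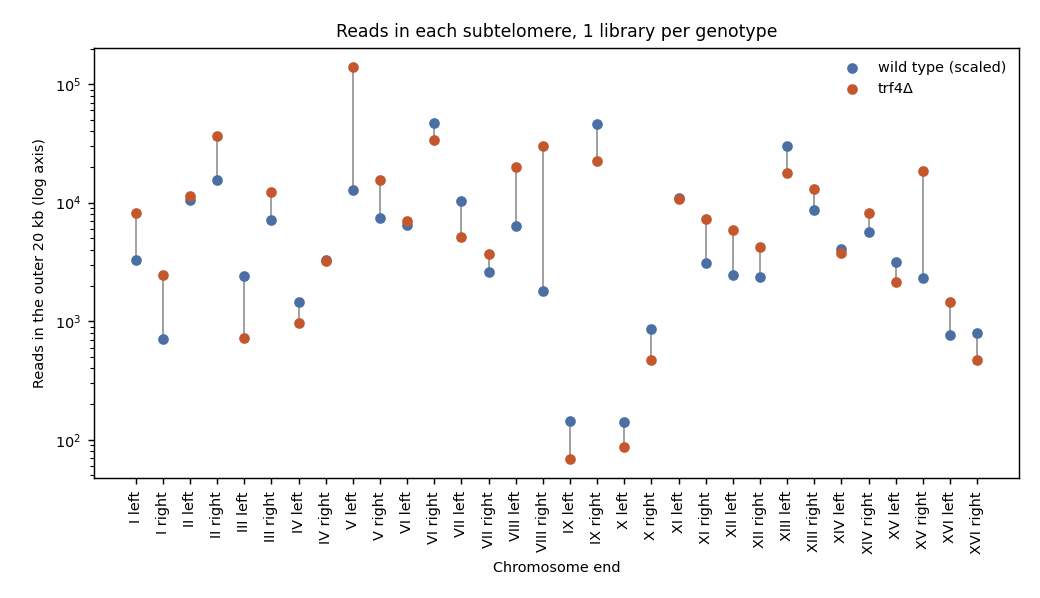
Summed reads in the outer 20 kb of each of the 32 chromosome ends, on a log axis, for scaled wild type (blue) and trf4Δ (orange), with 1 library each and a line joining the pair. V left reaches 138515 reads in trf4Δ and VIII right 29952, while III left and IX right lie lower in trf4Δ.

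CUTs were called by the steps of the study, which join segments that are more than 4-fold higher in trf4Δ when their starts lie up to 300 bp apart, ask for a size of at least 300 bp and for a mean log2 read count above 6 in trf4Δ. Being higher in trf4Δ is thus the rule and not a finding. Of 1573 nuclear CUTs, 44 (2.80%) lay wholly within 20 kb of an end, at 22 of the 32 ends. That is 13.7 per 100 kb of segments with a read, against 13.9 elsewhere, and 6.88 against 13.4 per 100 kb when segments at 0 are counted in. Within 5 kb of the end there were 4, followed by 11, 16 and 13 in the next bins of 5 kb. In the same order the bins had 424, 710, 928 and 1154 segments with a read. They measured 300 to 1700 bp with a median of 600 bp, against 500 bp elsewhere. Their log2 difference, averaged over segments, had a median of 3.41 and lay between 2.18 and 5.72, close to the 3.37 of the other CUTs.

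Overlap with ORFs was counted beside the make-up of the ends, where 52.5% of segments with a read overlap an ORF, against 80.1% elsewhere. Of the 44, 23 (52.3%) overlapped no ORF, against 28.1% of the others, a difference that was not tested apart from this make-up, and the segment with the most trf4Δ reads lay outside ORFs in 86.4% against 42.1%. This highest segment was in a tandem gap in 22, a convergent gap in 9, a divergent gap in 7 and an ORF in 6. Together they held 294298 trf4Δ reads, 66.0% of all subtelomeric reads of that library, against 37.8% for the CUTs elsewhere among their reads. In wild type they held 11325 reads (5.83%), against 2.84% elsewhere. Few CUTs made up the trf4Δ sum, as the 5 with the most reads held 70.9% of it and 46.8% of all subtelomeric reads in trf4Δ, and 14 CUTs had fewer than 1000 reads. NEL025 alone gave 28.4% of the subtelomeric trf4Δ reads, and the reads elsewhere include those of the U1 snRNA gene. Without U1 reads the subtelomeric share of nuclear trf4Δ reads was 1.95% in place of 1.52%. The 17 Y' ends had 21 CUTs among 1242 segments with a read, and the 15 X-only ends 23 among 1974.

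**Figure D4:**
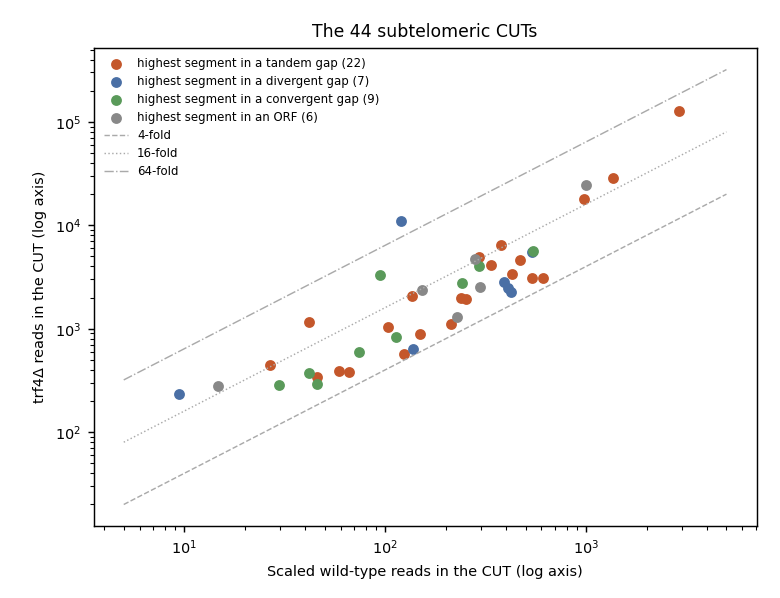
The 44 subtelomeric CUTs by scaled wild-type reads (x, log axis) and trf4Δ reads (y, log axis), each summed over segments past 4-fold only. Points are coloured by where the segment with the most trf4Δ reads lies, with lines at 4-, 16- and 64-fold. All lie above the 4-fold line by the rule that called them, NEL025 is at the upper right with 126530 trf4Δ reads, and 1 point, between YER186C and YER187W, is above the 64-fold line.

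NEL025 on chromosome V (15201 to 16100 in SGD1.01, as all coordinates of segments and CUTs here) had 2148 wild-type reads, or 2886 scaled, and 126530 in trf4Δ, a sum 43.8 times as high. It gave 28.4% of all subtelomeric reads in trf4Δ. Its highest segments, 15801 to 15900 and 15901 to 16000, held 47337 and 45544 trf4Δ reads against 1146 and 1113 scaled wild-type reads. The next segment towards the gene held 135 trf4Δ reads, so the CUT ended sharply in both libraries. Past this point the pattern turned. Over the first whole segment of DLD3, a D-lactate dehydrogenase, 374 reads in trf4Δ stood against 716 scaled reads in wild type, a difference of -0.94.

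At the right end of chromosome VIII the CUT 553401 to 554700 spans the end of PHO12, a repressible acid phosphatase, and the start of IMD2, an IMP dehydrogenase of GTP synthesis. The region before IMD2 is known to give short unstable transcripts from start sites upstream of those of the mRNA. The CUT had 1014 wild-type reads, or 1363 scaled, and 28826 in trf4Δ, 21.2 times as high in sum. It held 2 humps, with 3127 trf4Δ reads at 553801 to 553900 and 9239 at 554201 to 554300, and the segment starting at 554001 between them held 1. PHO12 has 8.67% and IMD2 51.3% of its 32-base stretches once in R64. Whether a read could be placed uniquely in the segments between these ORFs was not tested, so the low count between the humps is uncertain. Inside the IMD2 ORF the counts came together after its first segments. The segment 554401 to 554500 had 2898 trf4Δ and 69.9 scaled wild-type reads, and by 554901 to 555000 the counts were 9 and 5.38. A separate CUT, 555701 to 556200, overlaps the other end of IMD2, with 113 scaled wild-type and 838 trf4Δ reads (3.07).

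At II right the CUT 799701 to 800300 covers YBR296C-A, a short ORF between PHO89, a sodium and phosphate cotransporter, and MAL33, the activator of maltose genes. It had 745 wild-type reads, or 1001 scaled, and 24433 in trf4Δ, 24.4 times as high. Within 100 bp the difference closed, from 489 against 69.9 reads at 800201 to 800300 to 18 against 43.0 at 800301 to 800400. Over the start of MAL33 the segment 800501 to 800600 had 1311 reads in trf4Δ and 896 in scaled wild type, a difference of 0.55.

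At XV right the CUT 1076001 to 1076600 begins in the end of YOR389W, of unknown function, and fills most of the gap before YOR390W, a fluoride exporter. It had 728 wild-type reads, or 978 scaled, and 17924 in trf4Δ, 18.3 times as high. Nearly all were in 2 segments, 5739 trf4Δ reads at 1076301 to 1076400 and 11944 at 1076401 to 1076500. The segments from 1076601 to 1077100, which run into YOR390W, were at 0 in both libraries. Only 15.3% of the 32-base stretches of YOR390W, and 45.1% of those of YOR389W, occur once in R64. The counts of 0 are therefore uncertain, as whether a read could be placed uniquely in these segments was not tested.

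The CUT with the largest difference, 5.72, lies on V right at 562801 to 563600 between the divergent ORFs YER186C and YER187W. It had 89 wild-type reads, or 120 scaled, and 11083 in trf4Δ, 92.7 times as high. Its segment 563301 to 563400 had 3 wild-type reads and 956 trf4Δ reads, the highest difference of any subtelomeric segment past the level, 7.89, on very few wild-type reads. The ORFs to either side did not share this. Over the first whole segment of YER186C, 562501 to 562600, the counts were 291 in trf4Δ and 113 scaled in wild type, and YER187W had 184 in trf4Δ and 897 in scaled wild type, a difference of -2.29.

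**Figure D5:**
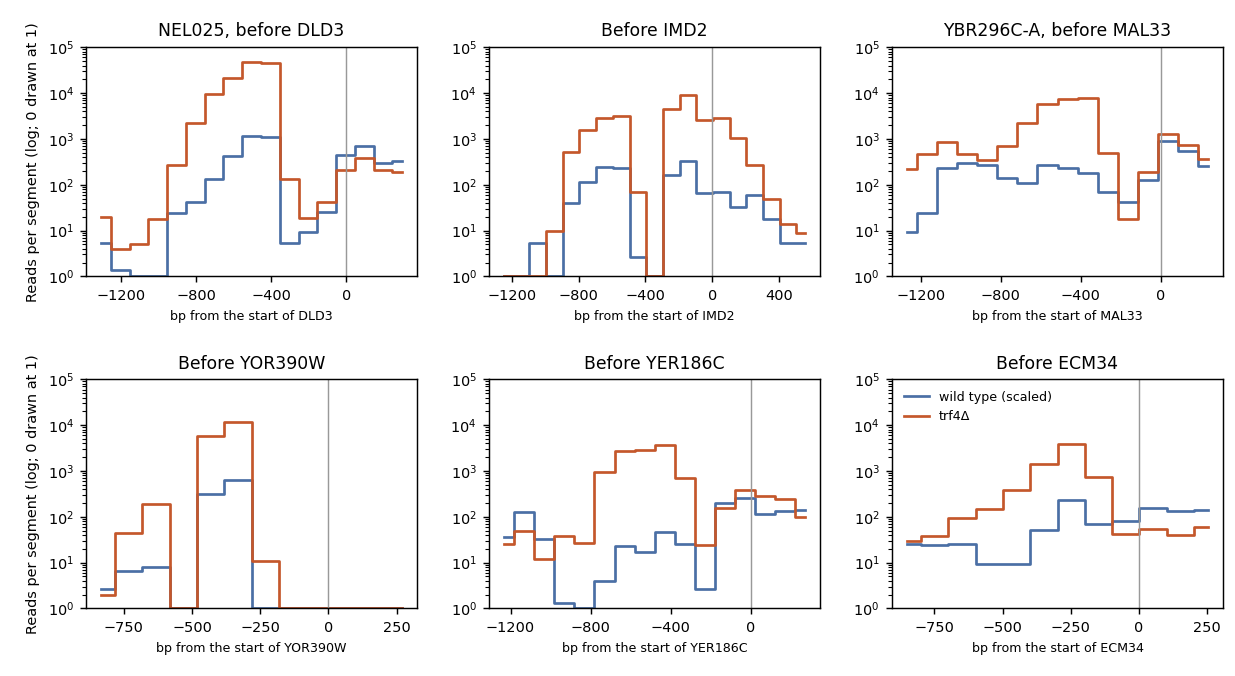
Reads per 100 bp segment (log axis, 0 drawn at 1) in scaled wild type (blue) and trf4Δ (orange) around the 6 loci whose sequences are given, by distance in bp from the start of the named ORF (grey line). In each panel the trf4Δ line stands far above the wild-type line before the ORF, as at NEL025 with 47337 against 1146 reads, and the lines come close or cross near the start of DLD3, MAL33, YER186C and ECM34.

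NEL025 ranked 3 by difference (4.70), and the other CUTs among the 5 largest had fewer reads. The CUT I 2601 to 3400, over the short ORF YAL067W-A between PAU8 and SEO1, had 94.1 scaled wild-type and 3326 trf4Δ reads (4.95). XV 12401 to 12700 had 9.41 and 235 reads (4.70), and XII 13901 to 14500, between PAU18 and AYT1, had 41.7 and 1164 (4.61). At the low end stood VI 16701 to 17000 before AGP3, a broad amino acid permease, with 138 and 631 reads (2.18), IX 425401 to 425700 with 124 and 569 (2.31) and XIII 915901 to 917600 with 425 and 2276 (2.57). Over the whole interval, with segments not past 4-fold, VI 16701 to 17000 held 253 and 1050 reads. XIII 915901 to 917600 held 603 and 2879 in the same way. XIV 15901 to 16200 over AAD14 (2.59) and VI 268001 to 268300 before YFR057W (2.62) completed the lowest 5. The outermost CUT lay at XIII 923301 to 923600 over YMR326C, with its far edge 1129 bp from the end.

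Some ends held several CUTs side by side. VIII left held 5 between 10601 and 19100, of which the one before ECM34, a gene of unknown function, was the largest with 379 scaled wild-type and 6516 trf4Δ reads. IX right held 5 from the gap after GTT1, a glutathione transferase, into YPS6, an aspartyl protease, with 392 to 3060 trf4Δ reads each. At the inner limit of 20 kb, the last CUTs inside were VIII 17801 to 19100 (3.04) and V 17901 to 18800 (2.81), and the first outside were XVI 19601 to 20100 (2.71) and XI 19701 to 20200 (3.58).

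With the libraries exchanged, the same steps called 20 subtelomeric regions of 1332 that were lower in trf4Δ. All 20 overlapped an ORF and lay beyond 10 kb from the end, and their median difference was -2.37. Overlap with an ORF is not particular to the ends, as 8919 of the 9343 lower segments elsewhere overlapped one. The one with the most reads, IX 422001 to 423800 over IRC24 and HYR1, had 37315 scaled wild-type reads and 6828 in trf4Δ (-2.59). It contained the segment with the most wild-type reads of all members, 423101 to 423200 in HYR1, with 6521 scaled reads against 1296. XIII 14401 to 14800 over COX14 had 12689 and 2223 reads (-2.46). Of the 44 subtelomeric CUTs, 23 were clear of ORFs, as given above.

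Among ORFs, 307 of 6666 nuclear ones lay wholly within 20 kb of an end. Of these 114 (37.1%) had no read in either library, against 1.60% of the others, and 126 (41.0%, against 96.0%) exceeded 6 on the log2 scale in a library, wild type as scaled by the authors. Of the 126, 16 (12.7%) were more than 4-fold higher in trf4Δ, where the background over 6231 nuclear ORFs was 8.1%, and 15 (11.9%) more than 4-fold lower, where it was 10.6%. The counts are small, and the lower share lay close to its background. The median was -0.65, against -0.98 for the other ORFs. Of the 16 higher ORFs 10 overlapped a CUT, as did 0 of the 15 lower ones and 18 of all 126. Elsewhere 473 of the 489 higher ORFs did, and 1208 of all 6105 past the level. CUTs are built from segments that are higher in these same libraries, so such overlap follows largely from the rule. Reads on ORFs that overlap a CUT can belong to the CUT, and without strand the 2 cannot be told apart. With the median of nuclear ORFs set to 0, which moves every ORF up by 0.97, 20 were higher and 1, PAU3, was lower.

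Most of the higher ORFs had no gene name. Of the 174 without a gene name 56 passed the level, with 12 higher and 5 lower, and of the 133 named 70 passed, with 4 higher and 10 lower. YBR296C-A stood first with 187 scaled wild-type and 6790 trf4Δ reads (5.18), the most trf4Δ reads of any subtelomeric ORF. YMR326C had 4.03 and 103 reads (4.67), YCR102W-A 8.07 and 161 (4.32), YAL067W-A 5.38 and 90 (4.06), and YGR291C 10.8 and 169 (3.97). The 4 named ones were IMD2 with 389 and 3763 reads (3.28), which a CUT overlaps at either end, THI5 with 30.9 and 159 (2.36), SNO2 with 33.6 and 158 (2.23) and SNO3 with 35.0 and 142 (2.02). Within 10 kb 9 ORFs were higher and 1 lower of 41, and from 10 to 20 kb 7 were higher and 14 lower of 85.

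The lower ORFs included abundant mRNAs of unrelated roles. PAU3, with 38.4% of its 32-base stretches once in R64, was the lowest with 132 scaled wild-type and 13 trf4Δ reads (-3.34), and its segment III 307801 to 307900 the lowest of the segments past the read level (-4.82), on 63 unscaled wild-type and 3 trf4Δ reads. IRC24, a benzil reductase, had 6127 and 883 reads (-2.79), and FDH1, formate dehydrogenase, 546 and 83 (-2.72), a count that is uncertain as 11.1% of its 32-base stretches occur once in R64. SRY1, a dehydratase of 3-hydroxyaspartate, had 1026 and 160 (-2.68), and COX14, needed to assemble cytochrome c oxidase, 8376 and 1385 (-2.60). PHO89 had 2625 and 457 (-2.52), next to the CUT over YBR296C-A. HYR1, a thiol peroxidase, had the most wild-type reads of the subtelomeric ORFs, 17464 against 3417 (-2.35). HXK1, a hexokinase, with 14760 and 5368 reads (-1.46), and RPN12, a proteasome subunit, with 8718 and 3006 (-1.54), lay closer to the median of all ORFs.

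Subtelomeric gene families did not share a direction. The PAU genes encode cell wall mannoproteins of anaerobic growth, and 18 lay within 20 kb. Of these 7 had no read and only PAU3 passed the level, and 9 of the 11 with a read, PAU3 among them, had fewer in trf4Δ, with sums of 346 scaled wild-type and 76 trf4Δ reads. The PAU counts are uncertain, as a median of 10.7% of the 32-base stretches of these genes occur once in R64. Fewer reads in trf4Δ are also not particular to them, since the median of all nuclear ORFs past the level was -0.97. Among the 11 COS genes, which encode membrane proteins that act in endosomal sorting, 7 passed and ranged from COS12 at -1.56 to COS7 at 1.28, either side of the ORF median of -0.97. COS12 had 1113 and 377 reads, and COS7, with 22.9% of its 32-base stretches once in R64 and so an uncertain count, 159 and 384. All 7 AAD genes, putative aryl-alcohol dehydrogenases, had fewer reads in trf4Δ, but the 6 that passed ranged from AAD16 at -1.37 to AAD14 at -0.02, on both sides of that median. The 8 YRF1 genes, the helicases of the Y' elements, were at 0 in both libraries, with 0 to 1.28% of their stretches of 32 bases found once in R64.

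Vitamin genes split within families. The THI5 family makes the pyrimidine part of thiamine, and THI13 was lower (143 and 29 reads, -2.30) while THI5 was higher (2.36) and overlapped a CUT. SNO2 and SNO3, glutaminase subunits of vitamin B6 synthesis, were higher, whereas SNO4, below the level, had 37.7 and 15 reads. Their partners SNZ2 and SNZ3, at -0.47 and -0.13, had 88.8 and 64 reads and 64.5 and 59 reads. SNO2 and SNO3 each have only 10.0% of their 32-base stretches once in R64, THI5 8.47% and THI13 29.6%, so their counts are uncertain.

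Members of further families that passed the level are given by their values. MAL31, a maltose permease, had 1228 and 433 reads (-1.50), and MAL33 2343 and 2793 (0.25). HXT17, a hexose transporter, was at -0.82, SEO1, a putative permease, at -0.31, ARN2, a siderophore transporter, at -0.71, and FRE2, a ferric reductase, at -1.53. DAN3, a cell wall mannoprotein, was at -1.20, DDI3 at -1.13 and ERR3, an enolase-related ORF, at -0.58. DDI3, ERR3 and DAN3 have 4.95%, 24.9% and 26.2% of their 32-base stretches once in R64, so their counts are uncertain. No SOR, MPH, VTH, ARR or BSC gene passed the level. No gene named FLO, TIR, GEX, DSF, MAN, FIT, ENA or BIO lay wholly within 20 kb of an end in this table.

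The genes that silence subtelomeres and maintain telomeres were read from a list of 27, of which only RPD3, a histone deacetylase (-1.34), is itself a member. All 27 passed the level, with 3 higher, 0 lower and a median of -0.76, against 8.1% higher, 10.6% lower and a median of -0.97 for all nuclear ORFs, so the higher count was near its background. RIF2, which limits telomere length, had 1310 scaled wild-type and 40842 trf4Δ reads (4.96), YKU80, of the Ku complex at telomeres, 1926 and 20433 (3.41), and CDC13, which binds the telomeric overhang, 2118 and 9561 (2.17). All 3 overlapped a CUT, as did 5 of the 27, so these reads need not be mRNA. SIR2 had 79.3 and 83 reads (0.07), SIR3 241 and 242 (0.01) and SIR4 503 and 181 (-1.47), and the lowest was HST1 (-1.80).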

How the data were processed

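Cbc2-associated RNA was read from 2 libraries, 1 per genotype. The sources name Trim Galore 0.3.5 and Bowtie 0.12.7, with unique reads mapped to SGD1.01 or all reads to an SK1 assembly, and SeqMonk for counting. The deposited tables do not name their mapping. In the segment table the authors deposited log2 values of whole read counts, without normalisation and with segments that lack a read entered as 0.9. In the ORF table the log2 values deposited by the authors include a factor of 1.34 on wild type. Segment sums may count a read at a border in both segments.

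Read counts were taken back from the log2 values. The 139 segments of the 37S pre-rRNA were removed and wild type was scaled by 1.34 to equal totals. CUTs were called on nuclear chromosomes without joining across chromosome ends, and the steps were tested on simulated data. Share intervals are 95% Wilson intervals. Uniqueness of a named ORF is the percent of its 32-base stretches found once in R64. R64 holds a locus tag for 232 of the 307 subtelomeric ORFs, under the 80% needed for a check over the set, which is void. No R64 coordinate was combined with SGD1.01 ones: sequences were placed by distance from an ORF start.

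Genes were named by family, as extremes by reads or difference (5 each, 3 for ends), or from the silencing list. The members and lists were chosen with earlier results of these data known. With 1 library per genotype no test was made, and p-values were not computed. Alternatives changed the scaling, read level, fold, distance, noise cut-off and joining. Python 3.11.15 was used with matplotlib 3.10.9, scipy 1.17.1, pandas 2.3.3 and numpy 2.4.6.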

Additional observations from a re-analysis of the deposited data

How the results depend on the processing

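No paired analysis was possible because there was 1 library per genotype, and for the same reason no replicate could be left out. Of 49 alternative values, 16 stayed near the reported one (a count within 1.5 times, a median within 0.1, a share within its counting interval), 31 moved further and 2 reversed, and the cause was not tested except where the alternative changes the members or the threshold itself. With the median difference set to 0, lower segments numbered 9, lower ORFs 1, and the median of subtelomeric segments turned from -0.37 to 1.90. The segment values also reflect the read level, which was applied again after this scaling. Equal totals without the U1 snRNA gene gave a median of -0.14, and shares of 1.05% in wild type and 1.95% in trf4Δ. A read level of 16 gave 330 lower segments and a median of -0.50, and no read level 460 higher and 458 lower segments and 27 lower ORFs. At more than 8-fold there were 186 higher and 25 lower segments, and 9 higher and 1 lower ORF. Within 10 kb there were 117 higher and 14 lower segments, a median of 0.87 (reversed), 15 CUTs, 9 higher and 1 lower ORF, and shares of 0.173% and 0.380%. Within 30 kb there were 550 and 374 segments, a median of -0.75, 87 CUTs, 26 and 25 ORFs, and shares of 2.30% and 3.10%. Without the left end of chromosome V, chosen after seeing the data, the shares were 0.844% and 1.05%. CUTs otherwise numbered from 32 at 8-fold to 55 with a noise cut-off of 5. Depth limits what segments below 64 reads can show, which entered only with a lower read level or none, and segments at 0 allow up to 3 reads each.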

Other observations

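Of the 114 subtelomeric ORFs at 0 in both libraries, 73 have a locus tag in R64, too few for a check over the set. Of the 73, 56 have under 10% of their 32-base stretches once in R64, and 11 have over 90%. These values belong to no comparison above. They are SGE1, a drug transporter, and ARR1, ARR2 and ARR3, the arsenic resistance genes, on chromosome XVI between 934030 and 941132; MAL11, a maltose permease, on chromosome VII (1073969 to 1075819); BDS1, a sulfatase, with YOL164W-A, YOL163W, YOL162W and YOL160W on chromosome XV between 4130 and 14653; and YER188W on chromosome V (568035 to 568754). The 4 ORFs on chromosome XVI lie next to each other, and the other groups lie at 3 further chromosome ends. A count of 0 allows up to 3 reads in each. Why these ORFs held no read was not tested.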
